A study of Mus musculus with 6 samples.

Results

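Hmgcs1, Mvd, Idi1, Fdps, Fdft1, Sqle and Lss, 7 enzymes that make cholesterol from acetyl-CoA, were followed in hearts of normal diet (ND)-fed and high fat diet (HFD)-fed mice. Their probes were taken from the array by an exact match of the gene name, which gave 8 probes for 7 of the 36163 gene names on the array. The set had been put together under the heading of cholesterol synthesis and uptake, yet all 7 genes code for synthesis enzymes, so it is described here as a set of synthesis enzymes, and uptake genes are counted separately. The rule used gene names and no measured value, though the set was put together with earlier results of these data known. In ND-fed and HFD-fed hearts alike all 7 mRNAs were measured above background, and for none did the difference between diets pass the test: HFD-fed hearts held between 80.4% (Idi1) and 110% (Sqle) of the ND-fed mean.

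The data were 6 hearts of male C57BL/6 mice, 3 per diet, each on its own 1-colour Agilent array. From 4 weeks of age the mice received standard chow (ND) or a diet with 60% of its calories from fat (HFD) for 4 months, and the labels give no other treatment or allele. The comparison asks which cardiac transcripts differ after long fat feeding. RNA was extracted from heart tissue and not from sorted cells, so fewer cells of a type and less RNA per cell cannot be told apart.

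Cholesterol synthesis runs in the cytosol and endoplasmic reticulum from acetyl-CoA through mevalonate to the isoprenoids isopentenyl and farnesyl diphosphate, then through squalene to lanosterol and cholesterol. The farnesyl diphosphate step is a branch point, from which ubiquinone, dolichol and protein prenyl groups are also made. When sterols in the endoplasmic reticulum run low, the transcription factor SREBP-2 is released from its membrane and turns on most genes of the pathway together, through sterol regulatory elements that usually lie close to sites for NF-Y and Sp1.

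Each array probe is 60 bases long. The first 30 bases of the probes on which the results below turn, 5′ to 3′, are shown so that the transcripts measured can be traced.
Hmgcs1 A_55_P2032966: agtaattttaacgtttgggtgccaagaagt
Idi1 A_55_P2028961: ctaatttcttgctaactctgaacagttgat
Fdps A_55_P1966804: tcttcatggaacttgcaaacaagatctaca
Sqle A_55_P1975185: tgatttcagtatttggggtgactcattggg
Fdft1 A_55_P2033250: agagatttatcactggatccccaactcaga
Per the file headers, the Hmgcs1 probe lay on the minus strand of a chromosome 13 sequence not placed in the mm9 assembly, and the Idi1 probe at chr13:8891524-8891583 on the plus strand. The Fdps probe lay at chr3:88897549-88897608 (minus), the Sqle probe at chr15:59162688-59162747 (plus), the Mvd probe at chr8:124957750-124957809 (minus) and the Lss probe at chr10:76015992-76016051 (plus). The brighter Fdft1 probe was mapped from chr14:63765750 to chr14:63769990 (minus), so its 60 bases came from more than 1 exon across 4241 bases. Whether the probes sit in coding or untranslated exons was not analysed here.

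The 250 bases before the gene start were given by RefSeq (GRCm38.p6) for Hmgcs1, Mvd, Idi1 and Lss, 4 of the 7 genes. Those of Hmgcs1, the first enzyme of the set, and of Idi1, the gene with the largest difference between diets, are printed 5′ to 3′ on the gene's strand. Capitals mark TCACNCCAC (a sterol regulatory element), CCAAT (the letters read by NF-Y) and GGGCGG (those read by Sp1), each on either strand. None of the marked stretches overlapped another.
Hmgcs1, chr13:119690101-119690350, plus strand: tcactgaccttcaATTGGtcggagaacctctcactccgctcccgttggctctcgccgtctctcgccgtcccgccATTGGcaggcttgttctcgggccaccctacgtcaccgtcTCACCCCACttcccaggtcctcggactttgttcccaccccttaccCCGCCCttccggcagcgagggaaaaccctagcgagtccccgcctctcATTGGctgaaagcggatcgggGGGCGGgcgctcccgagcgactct
Idi1, chr13:8885356-8885605, plus strand: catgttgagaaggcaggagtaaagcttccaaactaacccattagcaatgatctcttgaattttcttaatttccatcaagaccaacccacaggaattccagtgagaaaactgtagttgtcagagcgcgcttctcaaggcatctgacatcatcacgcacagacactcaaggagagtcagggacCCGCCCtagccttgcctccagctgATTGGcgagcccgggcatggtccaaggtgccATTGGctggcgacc
The Hmgcs1 window held 1 sterol regulatory element, starting 137 bases before the gene start, together with 3 CCAAT and 2 GGGCGG matches. No sterol regulatory element of these letters was in the windows of Mvd, Idi1 and Lss. Among all 32851 promoter windows of the same length, 1.05% held the element. CCAAT was found in 33.8% of all windows and GGGCGG in 32.7%, and 11% held both, as did all 4 windows searched here. The palindrome CACGTG, an E-box, was in 6.02% of all windows and in none of the 4. A match of letters is a description of the sequence and not a measured site.

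Levels below are log2 processed intensities relative to the 75th percentile of the same array, so 0 is the 75th percentile and 1 unit is a doubling. They compare hearts for 1 probe and not probes with each other. A gene was called at an adjusted p below 0.05 in limma's moderated test over 27590 probes.

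Hmgcs1, which joins acetyl-CoA and acetoacetyl-CoA to HMG-CoA and so feeds the pathway, stood at 3.11, 3.21 and 3.10 in the ND-fed hearts 1 to 3 and at 3.26, 3.23 and 3.18 in the HFD-fed hearts 1 to 3. HFD-fed hearts 1 and 2 were above all ND-fed hearts, and HFD-fed heart 3 was below ND-fed heart 2. The mean was 3.14 ± 0.060 (SD, n = 3) in ND-fed and 3.22 ± 0.043 in HFD-fed hearts, a difference of 0.08 (SE 0.068, adjusted p = 0.685). The 95% confidence interval ran from 94.4% to 119% of the ND-fed mean.

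Mvd decarboxylates mevalonate diphosphate to isopentenyl diphosphate. Its levels were -0.68, -0.64 and -0.67 in ND-fed hearts and -0.80, -0.66 and -0.77 in HFD-fed hearts. HFD-fed hearts 1 and 3 were below the ND-fed hearts and HFD-fed heart 2 lay among them. HFD-fed hearts had 94.6% of the ND-fed mean (95% interval 84.0% to 106.6%, adjusted p = 0.712).

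Idi1, the isomerase that turns isopentenyl into dimethylallyl diphosphate, had the largest difference of the set and it did not pass the test. Levels were 0.36, 0.51 and 0.43 in ND-fed hearts and 0.43, 0.01 and -0.09 in HFD-fed hearts. HFD-fed heart 1 lay in the middle of the ND-fed hearts, whereas HFD-fed hearts 2 and 3 were below all of them. The mean was 0.43 ± 0.074 in ND-fed and 0.12 ± 0.277 in HFD-fed hearts, a log2 difference of -0.31 (SE 0.147, adjusted p = 0.476), or 80.4% of the ND-fed mean (95% interval 62.6% to 103%). Its size depended on single hearts: without HFD-fed heart 1 the difference was -0.47 (adjusted p = 0.216 in limma, unadjusted p = 0.00250), and without HFD-fed heart 3 it was -0.21 (adjusted p = 0.7002). In processed intensity Idi1 read 627, 686 and 641 in ND-fed and 696, 455 and 511 in HFD-fed hearts. The lowest intensity of any probe well above background was far below this, at 17.5 to 21.1 on these arrays.

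Fdps makes farnesyl diphosphate, the branch point. It was the 1 gene of the 7 in which the diets did not overlap, with 2.85, 2.88 and 2.79 in ND-fed hearts and 2.79, 2.72 and 2.72 in HFD-fed hearts. The lowest ND-fed heart (heart 3) and the highest HFD-fed heart (heart 1) printed alike at 2 decimals. Of all probes compared in this way, 19.0% had diets that did not overlap, so 1 of 7 is not a result about these enzymes. The mean was 2.84 ± 0.045 in ND-fed and 2.74 ± 0.038 in HFD-fed hearts, which is 93.6% of the ND-fed mean (95% interval 83.8% to 104%, adjusted p = 0.624). An exact two-sided permutation test gave p = 0.1, the smallest that 3 against 3 hearts allow.

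Fdft1, squalene synthase, commits farnesyl diphosphate to sterols. Its brighter probe stood at 2.010, 2.050 and 1.974 in ND-fed hearts and 1.999, 2.213 and 1.994 in HFD-fed hearts. HFD-fed heart 2 was the highest of the 6, and the other HFD-fed hearts lay within the ND-fed range. HFD-fed hearts had 104% of the ND-fed mean (95% interval 90.1% to 120%, adjusted p = 0.836). On all 6 arrays the second Fdft1 probe was at background, with intensities of 22.5, 14.9 and 11.7 in ND-fed and 20.5, 20.4 and 22.7 in HFD-fed hearts, and was not tested.

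Sqle, squalene epoxidase, carries out the first oxygen-requiring step. Levels were -2.54, -2.77 and -2.53 in ND-fed hearts and -2.13, -2.43 and -2.88 in HFD-fed hearts. Both the highest heart of the 6 (HFD-fed heart 1) and the lowest (HFD-fed heart 3) were HFD-fed, with a range of 0.75 among HFD-fed hearts against 0.24 among ND-fed hearts. The difference in means was 0.13 (SE 0.197, adjusted p = 0.837), or 110% of the ND-fed mean, and its interval from 78.4% to 153% was the widest of the set.

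Lss, lanosterol synthase, closes squalene epoxide into the sterol ring. It stood at -4.00, -4.12 and -3.89 in ND-fed hearts and -4.01, -3.78 and -4.09 in HFD-fed hearts, with the diets overlapping and HFD-fed heart 2 on top. HFD-fed hearts had 103% of the ND-fed mean (95% interval 85.4% to 124%, adjusted p = 0.919). Its intensities of 27.8 to 32.9 were the closest to background among the tested probes.

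**Figure D1:**
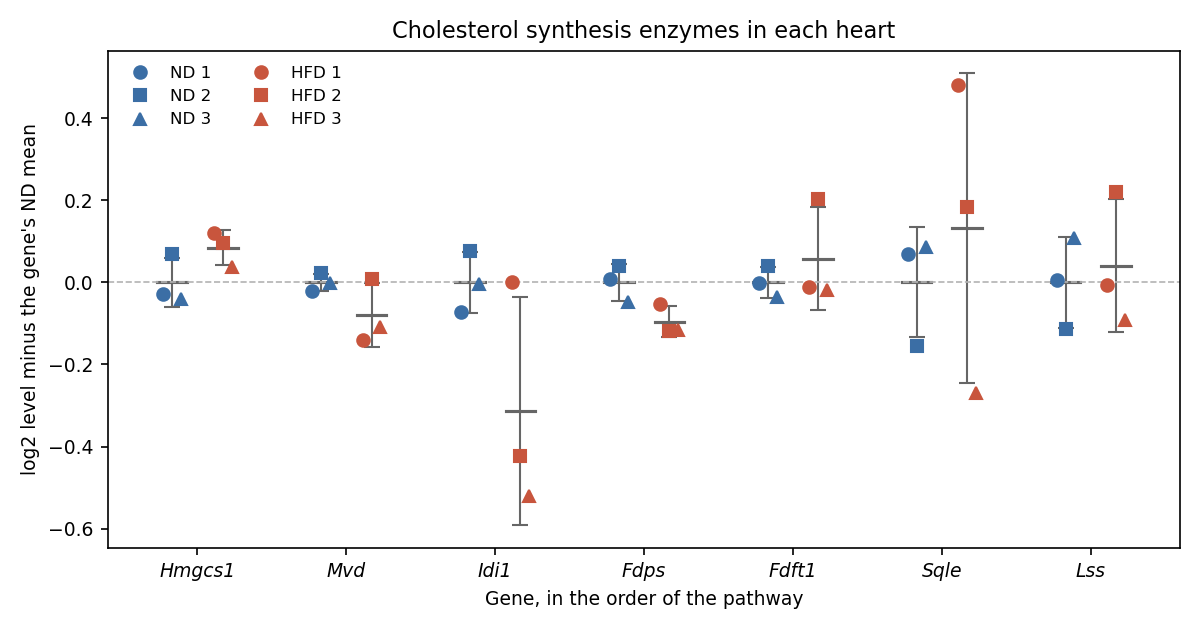
Level of the 7 enzymes in each heart as the log2 difference from the gene's ND-fed mean. Symbols are single hearts (blue ND, red HFD), horizontal ticks are means and bars are ± 1 SD of 3 hearts. The HFD-fed hearts spread over 0.52 for Idi1 and 0.75 for Sqle, while for Fdps they lie between 2.72 and 2.79 on the original scale.

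Of the 7 enzymes, 4 were higher and 3 lower in mean in HFD-fed hearts, with a median log2 difference of 0.04 beside a median of -0.01 over all probes. This split was not stable: without HFD-fed heart 2 it was 2 higher and 5 lower (median -0.05), and with the slide row as a term 1 higher and 6 lower (median -0.11). None was called, where 0.0145% of all probes were (4 of 27590, all higher in HFD-fed hearts). None had an unadjusted p below 0.05, the limit used in the study, where 11.9% of all probes did. Adjusted p-values ran from 0.476 to 0.919. A p that misses the threshold does not show that levels were equal, and the intervals give the sizes still possible. All 7 intervals lay within a 2-fold change in either direction, as did 89.8% of those of all probes. The median size of the difference was 0.08 for the enzymes and 0.11 over all probes.

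**Figure D2:**
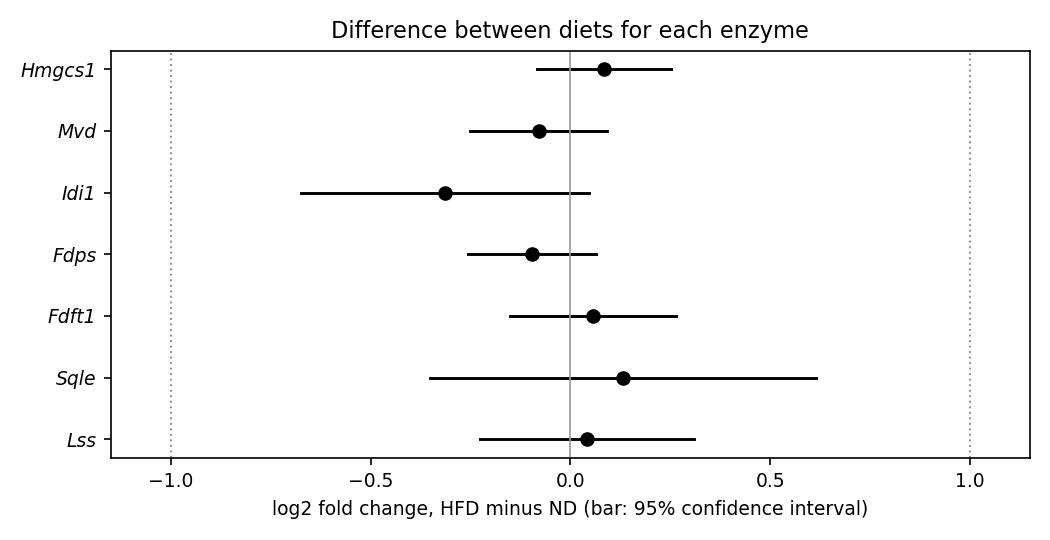
Log2 difference between HFD-fed and ND-fed hearts for each enzyme (points) with its 95% confidence interval from limma (bars), 3 hearts per diet. Dotted lines mark a 2-fold change. All 7 intervals include 0 and stay inside the dotted lines.

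The enzymes differed in how closely replicate hearts matched. The pooled SD within diets was 0.041 for Fdps, 0.052 for Hmgcs1 and 0.057 for Mvd, which placed them at percentiles 3.64, 7.58 and 9.92 of the SDs of all probes. Fdft1 (0.092) and Lss (0.139) were near or below the median of 0.138 over all probes. Idi1 (0.203) and Sqle (0.283) were above it, in both cases through the HFD-fed hearts. No heart was the highest or the lowest for all enzymes: ND-fed heart 2 was highest for 3 of them, and HFD-fed hearts 1 and 2 for 2 each. HFD-fed heart 3 was lowest for Idi1 and Sqle only, and ND-fed heart 3 for Fdft1 and Hmgcs1. The mean level over the 7 enzymes was 0.16, 0.16 and 0.17 in ND-fed hearts and 0.22, 0.19 and 0.01 in HFD-fed hearts, so HFD-fed heart 3 was lowest in this mean. The genes whose levels followed this mean most closely over the 6 hearts, of 12748 compared, were Hes2, Tcea1, Gm7932, Tiam1 and Sec22b, with Pearson r from 0.982 to 0.988. These were picked as the highest correlations and are a description. All 5 had their lowest level in HFD-fed heart 3, which follows from how they were picked, since the mean was lowest there. Gm7932 was dim (intensities 12.3 to 28.8) and well above background on 5 of the 6 arrays.

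The arrays shared 1 slide and 1 scan and had 27405 to 29469 probes well above background. The mean level of 8 cardiomyocyte markers was lowest in HFD-fed heart 3, at 7.58, and 7.74 to 7.81 in the other hearts. HFD-fed heart 2 stood apart in other cells: the mean of 4 atrial markers was 1.22 there against 4.71 to 7.88 elsewhere, that of 4 tested white adipocyte markers -4.05 against -1.82 to -0.21, that of 5 fibroblast markers 3.18 against 3.55 to 3.71, and that of 5 macrophage markers -0.71 against -0.25 to 0.03. Of 42 tested markers of 10 cell types none was called, and 2 higher and 9 lower in HFD-fed hearts had an unadjusted p below 0.05. Of all probes, 5.24% were higher and 6.63% lower at that limit. The 2 higher were Serpina1a (0.75, hepatocyte list) and Star (0.55, steroidogenic list). The 9 lower were Ttr of the hepatocyte list (-0.86), Kdr (-0.26, endothelial), Pdgfra (-0.30, fibroblast), Cd163 (-1.10, macrophage), Mybpc2 (-0.51, skeletal muscle) and all 4 tested red cell markers (-1.35 to -0.55). The dimmer Kdr probe gave -0.06. Star (intensities 12.6 to 29.3) was well above background on 4 of the 6 arrays and Cd163 (12.2 to 58.9) on 5. Each entered the test only through the diet in which it was higher, so these differences are a description. The hepatocyte markers Alb and Apoa1 and the steroidogenic markers Cyp11a1 and Hsd3b1 were too dim to be tested. The part of these cells in the enzymes' levels was not tested. Without HFD-fed heart 2, no enzyme had an unadjusted p below 0.05, the Idi1 difference was -0.26, and those of Fdft1 and Lss turned to -0.02 and -0.05. HFD-fed hearts 1 and 2 lay on 1 row of the slide and the other 4 hearts on the other. Within that second row, HFD-fed heart 3 against the ND-fed hearts gave -0.52 for Idi1 and -0.27 for Sqle. These differences rest on 1 HFD-fed heart, so the spread among HFD-fed hearts is not known there.

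**Figure D3:**
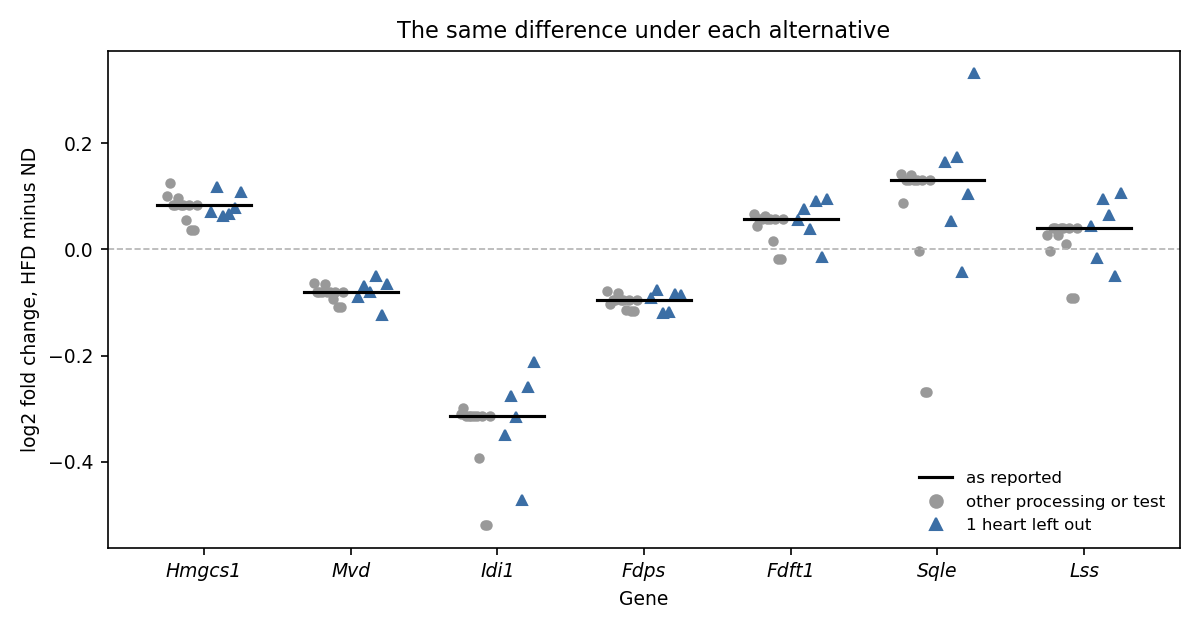
Log2 difference between diets for each enzyme as reported (black line), under other processing or tests (grey circles) and with 1 heart left out (blue triangles). Idi1, Mvd and Fdps stay below 0 and Hmgcs1 above 0 throughout, whereas Fdft1, Sqle and Lss fall on both sides.

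The other genes of the pathway give the setting. Of 79 genes in 6 lists (other sterol synthesis enzymes, non-sterol isoprenoid branches, sterol sensing, uptake, efflux and esterification, and fatty acid synthesis under SREBP control), 76 were tested. None was called, and 10 (13.2%) had an unadjusted p below 0.05, beside 11.9% of all probes. Of these, 4 were higher and 6 lower in HFD-fed hearts, where 5.24% of all probes were higher and 6.63% lower at that limit.

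Among the other 14 sterol synthesis enzymes 4 were higher and 10 lower, with a median log2 difference of -0.16, and 3 had an unadjusted p below 0.05, all lower. The largest negative difference was in Tm7sf2, a sterol C14-reductase, at -0.40 (SE 0.09, adjusted p = 0.224). Its levels were 0.40, 0.45 and 0.38 in ND-fed and 0.16, -0.05 and -0.08 in HFD-fed hearts, so the diets did not overlap, and its dimmer probe gave -0.33. Mvk, mevalonate kinase, lies upstream of Mvd and differed by -0.26 (adjusted p = 0.354) on its brighter probe and -0.39 on the other, again without overlap. Acat2, which makes acetoacetyl-CoA, differed by -0.19 (adjusted p = 0.413). In the other direction, Hsd17b7, a late sterol ketoreductase, had 0.41 (adjusted p = 0.501), with overlapping hearts. With the 7 enzymes added, 13 of 21 synthesis enzymes were lower in mean, beside 52.0% of all probes.

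Of 12 genes of the non-sterol branches, which use the products of Idi1 and Fdps, 4 were higher and 8 lower (median -0.08). Pdss1, which builds the isoprenoid tail of ubiquinone, was the 1 gene with an unadjusted p below 0.05, at -0.33 (adjusted p = 0.339), and the largest positive difference was 0.17 in Srd5a3 of dolichol synthesis. Of 16 sterol sensing genes, 10 were higher and 6 lower (median 0.09). Tmem97, an endoplasmic reticulum protein that binds sterols, differed by -0.30 on its brighter probe and -0.31 on the other (adjusted p = 0.289 and 0.279). Rnf139, an endoplasmic reticulum ubiquitin ligase, differed by -0.20 (adjusted p = 0.402). The largest positive difference was 0.26 in Mylip, the ligase that marks lipoprotein receptors for degradation.

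Of 12 uptake genes 10 were tested, 6 of them higher and 4 lower (median 0.01). Npc1, which moves cholesterol out of late endosomes, was the 1 with an unadjusted p below 0.05, at 0.36 (adjusted p = 0.397), and the largest negative difference was -0.08 in Lrp1, a lipoprotein receptor. Of 13 efflux and esterification genes 12 were tested, with 7 higher and 5 lower (median 0.00). Abcg1, a cholesterol exporter, differed by 0.21 (adjusted p = 0.323). Ch25h, which makes 25-hydroxycholesterol, had the largest difference of all lists at 0.79, but its HFD-fed hearts (-0.97, -1.04 and -2.71) reached as low as the lowest ND-fed heart (adjusted p = 0.597). Soat1, which esterifies cholesterol, had -0.31 (adjusted p = 0.587).

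The 12 fatty acid synthesis genes had 10 higher and 2 lower (median 0.04), where 48.0% of all probes were higher. Of the 10, Acaca, Acly, Fads1 and Scd2 differed by only 0.002, 0.02, 0.02 and 0.01. Gpam, which starts glycerolipid synthesis, had 0.49 and 0.61 on its brighter and dimmer probes (adjusted p = 0.274 and 0.237), and Me1, malic enzyme, had 0.34 on the brightest of its 3 probes (adjusted p = 0.332). Their hearts did not overlap between diets. The largest negative difference was -0.18 in Acss2, acetyl-CoA synthetase (adjusted p = 0.462).

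**Figure D4:**
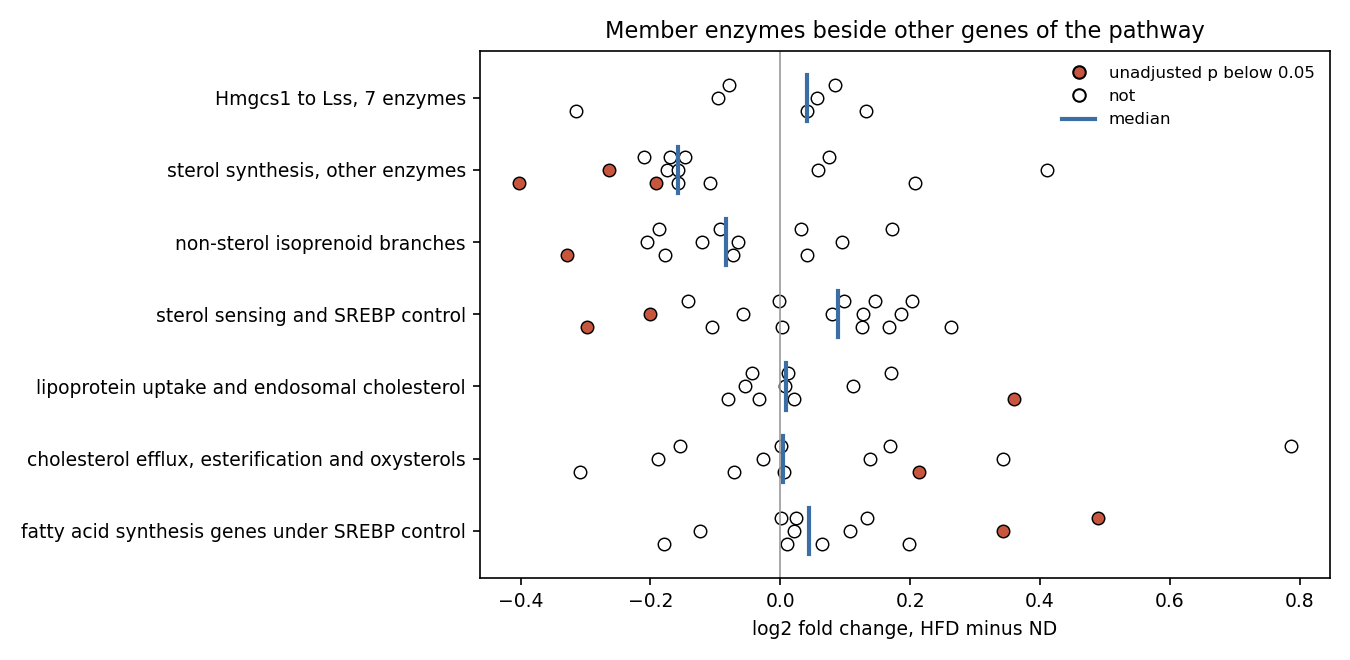
Log2 difference between HFD-fed and ND-fed hearts for the 7 enzymes (top row) and for each tested gene of 6 other lists, 1 circle per gene at its brightest probe. Filled circles have an unadjusted p below 0.05 and blue lines are medians. The 7 enzymes hold no filled circle, and the other synthesis enzymes have 3, all below 0.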

How the data were processed

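Total RNA from 6 mouse hearts was hybridised by the authors, 1 heart per array, to 1-colour Agilent arrays, and spots were read with Agilent Feature Extraction 10.7.1.1 per the file headers. The deposited scanner files give a background-subtracted processed signal, an intensity, for each of 55681 probes. A deposited table of log2 values by the authors, whose making is not stated, ranked each array as its scanner file did and differed from quantile-normalised log2 intensity by a median of at most 0.00188, and served as an alternative.

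Outlier spots and controls were left out, spots of a probe averaged, and the log2 intensity taken relative to the 75th percentile of each array. Kept probes were well above background in every measured heart of at least 1 diet and measured in at least 2 hearts of each diet. This left 27590 probes. HFD was compared with ND over 6 hearts in limma 3.58.1 (R 4.3.3) with Benjamini-Hochberg adjustment over all of them. Exact permutation tests covered 20 splits of the hearts. Figures were drawn with matplotlib 3.10.9. For genes with several probes, the brightest stood for the gene in counts. Named genes outside the set were those with an unadjusted p below 0.05, the largest difference in each direction of each list, and 5 genes most correlated with the set. The enzymes and lists were chosen with earlier results of these data known. Replicates were separate hearts by the study's methods. The number of arrays limits the precision. Alternatives changed the normalization, background correction, filter, test, variance model, blocks and hearts. As a check, the fit was also run on data simulated from these arrays. The sequence and position of 1 probe are not reported here.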

Additional observations from a re-analysis of the deposited data

How the results depend on the processing

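Under 18 other settings, no enzyme had an adjusted p below 0.05, and of 126 values 12 turned sign. Hmgcs1 stayed between 0.04 and 0.12, Mvd between -0.12 and -0.05, Idi1 between -0.52 and -0.21 and Fdps between -0.12 and -0.08. Lss turned to -0.00264 with normexp background correction and to -0.0920 with the slide row as a term or within slide row 2, and ranged from -0.0492 to 0.107 with 1 heart left out. Sqle turned to -0.00245 with array weights and to -0.269 with the slide row as a term or within slide row 2, and ranged from -0.0426 to 0.332 with 1 heart left out. Fdft1 turned to -0.0177 with the slide row as a term or within slide row 2, and ranged from -0.0150 to 0.0947 with 1 heart left out. The median of the 7 enzymes was -0.108 in both fits on the slide row, and -0.0492 to 0.0947 with 1 heart left out. It was also negative with normexp (-0.00264) and with array weights (-0.00245), and without ND-fed heart 2 (-0.0166), HFD-fed heart 1 (-0.0426) or HFD-fed heart 2 (-0.0492). With array weights and with the slide row as a term, 1 enzyme (Idi1) had an unadjusted p below 0.05, and with the methods' t-test 1 did (Fdps). At that limit 4463 of 27590, 2129 of 27551 and 3145 of 27590 probes passed in these settings, in that order. With 1 heart left out 0 to 1 enzyme passed (Idi1 without HFD-fed heart 1, beside 3264 of 27590 probes). A count of 1 of 7 is not a result about these enzymes. Both slide-row fits give the difference of HFD-fed heart 3 from the ND-fed hearts, since the first row held no ND-fed heart. Within slide row 2 the spread came from the ND-fed hearts alone. That fit was therefore left out of the counts at the unadjusted limit. The cause of these changes was not tested.

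Calls over all probes moved more. After adjustment 40 probes passed with normexp, 81 with an intensity trend and robust variances, 10 with array weights and 2 with the authors' log2 table in limma, and 8 with the methods' t-test, which is no limma fit. None passed in limma without the filter on dim probes or with the slide row as a term. In these settings 3438 of 55681 and 2129 of 27551 probes had an unadjusted p below 0.05, in that order. With 1 heart left out 0 to 2 passed after adjustment and 2156 to 3490 before it. The count after adjustment was 2 without ND-fed heart 1 or HFD-fed heart 1, and 0 without any of the others. Deviations of hearts with the same replicate number correlated at -0.154, 0.147 and 0.190. These values differ in sign and do not settle whether hearts were paired. The numbers were not taken as pairs in the main fit. With the replicate number as a block, 0 probes passed after adjustment and 3016 before it, and no enzyme was called. The second Fdft1 probe was at background and Lss was the dimmest tested enzyme.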
